A study of Mus musculus with 15 samples.

Results

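Glutamate and GABA are the main fast transmitters that developing midbrain dopamine neurons receive, and the receptors for both are built from families of related subunits. The genes described here are the 47 mouse subunit genes of these receptors, 26 for glutamate and 21 for GABA, chosen by gene symbol; no measured value enters the rule. The sorted gene table held 43 of them among 21566 genes, and the time series table held 36 among 10781 genes. RNA was measured in cells sorted by fluorescence from ventral midbrains. The mice carry a Pitx3-GFP reporter, which makes green fluorescent protein (GFP) where Pitx3, a transcription factor gene of midbrain dopamine neurons, is active. All 5 groups carried the Pitx3-GFP genotype, and each group had 3 libraries. The first 2 groups were GFP+ and GFP- cells of embryonic day 14 (E14). The other 3 were GFP+ cells of a separate time series taken at E14, then 2 embryonic days later (E16), then at birth (P0). Midbrains of 3 litters were used, and no label ties a library to a litter, so p-values measure the spread between these libraries, which may be technical.

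AMPA receptors carry the fast excitatory current, and NMDA receptors need both glutamate and a second ligand to open and pass calcium. Kainate receptors act on both sides of synapses, delta receptors bind synaptic organizer proteins, and metabotropic (mGlu) receptors signal through G proteins. GABA-A receptors are chloride channels, usually of alpha, beta and gamma subunits, and GABA-B receptors are G protein coupled pairs of Gabbr1 and Gabbr2. In dopamine neurons these inputs modulate firing and its bursts, and in immature neurons a high internal chloride can make GABA-A currents depolarizing.

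The start regions of 6 subunit genes are shown because these genes span the differences between the sorted fractions: Grik3, Grm2 and Gabrq were higher in GFP+ cells, and Gabrg1, Gabra2 and Grm3 were lower. Each line holds the 250 bases before the RefSeq start on the gene's own strand, 5′ to 3′, in build GRCm38.p6, with every CG dinucleotide in capitals. The windows lie at chr4:125490446-125490695 (plus strand, Grik3), chr9:106656110-106656359 (minus, Grm2), chrX:72824928-72825177 (plus, Gabrq), chr5:70842618-70842867 (minus, Gabrg1), chr5:71095850-71096099 (minus, Gabra2) and chr5:9725353-9725602 (minus, Grm3).
Grik3: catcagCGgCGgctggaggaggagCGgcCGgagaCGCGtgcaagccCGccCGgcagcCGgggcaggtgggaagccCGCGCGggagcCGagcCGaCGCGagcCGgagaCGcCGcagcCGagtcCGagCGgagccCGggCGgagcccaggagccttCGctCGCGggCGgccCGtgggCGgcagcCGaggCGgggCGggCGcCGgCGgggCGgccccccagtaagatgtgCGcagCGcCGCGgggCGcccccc
Grm2: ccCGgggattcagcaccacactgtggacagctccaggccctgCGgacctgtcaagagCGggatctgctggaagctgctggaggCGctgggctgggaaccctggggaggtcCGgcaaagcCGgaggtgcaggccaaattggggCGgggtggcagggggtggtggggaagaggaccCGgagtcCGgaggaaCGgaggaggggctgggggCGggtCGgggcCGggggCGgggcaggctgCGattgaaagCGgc
Gabrq: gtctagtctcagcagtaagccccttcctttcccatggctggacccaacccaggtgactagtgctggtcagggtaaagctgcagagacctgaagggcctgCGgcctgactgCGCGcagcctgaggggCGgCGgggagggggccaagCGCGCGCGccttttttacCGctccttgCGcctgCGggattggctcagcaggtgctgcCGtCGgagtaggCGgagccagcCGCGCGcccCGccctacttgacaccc
Gabrg1: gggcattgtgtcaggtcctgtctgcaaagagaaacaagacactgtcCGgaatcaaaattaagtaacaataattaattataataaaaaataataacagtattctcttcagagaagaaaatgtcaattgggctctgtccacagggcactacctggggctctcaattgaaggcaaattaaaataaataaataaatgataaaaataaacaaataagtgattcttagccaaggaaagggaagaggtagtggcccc
Gabra2: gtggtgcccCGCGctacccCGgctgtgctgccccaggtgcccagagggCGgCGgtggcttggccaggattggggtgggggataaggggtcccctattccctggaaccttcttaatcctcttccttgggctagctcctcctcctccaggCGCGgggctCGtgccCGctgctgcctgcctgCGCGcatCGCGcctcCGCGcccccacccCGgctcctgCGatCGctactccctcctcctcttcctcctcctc
Grm3: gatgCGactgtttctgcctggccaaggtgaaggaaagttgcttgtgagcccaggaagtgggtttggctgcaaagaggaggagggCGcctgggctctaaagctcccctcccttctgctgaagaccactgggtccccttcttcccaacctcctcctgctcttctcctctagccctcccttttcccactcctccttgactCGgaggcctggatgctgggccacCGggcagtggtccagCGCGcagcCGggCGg
The Grik3 window held 42 CG dinucleotides, that of Gabrq 19, that of Gabra2 18, that of Grm2 16, that of Grm3 8 and that of Gabrg1 1. The genes higher in GFP+ cells thus had 16 to 42 CG and the lower ones 1 to 18, ranges that overlapped only through Grm2 and Gabra2. These 6 genes were chosen with their values known, and a link of CG content to direction was not tested. RefSeq windows were matched for 32 of the 47 genes, 39 windows in all. With the window nearest the annotated start taken for each gene, the median over these genes was 10.5 CG. Over all 32851 windows, which can hold several of a gene, it was 6. The Nr4a2-type response element AAAGGTCA, searched on both strands as were the others, was found in 0 of the 39 windows and in 1.34% of all windows. TAATCC, the site of bicoid-type homeodomain factors such as Pitx3, was found in 2 of them (5.13%, Gabra2 and Gabrr2) against 6.25% of all windows. The homeodomain core TAATTA was found in 1 (Gabrg1, 2.56%) against 4.84% of all. The forkhead site TGTTTAC was found in 1 (Gabrr1) against 3.17% of all, and TATAAA in 4 (10.3%) against 12.4%. The cAMP response element TGACGTCA was found in 0 against 1.55%, and its shorter part TGACG, which lies within it, in 3 (7.69%) against 17.8%. A match is a description of letters in this window only.

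All values are the authors' normalized reads per gene, that is, reads divided by a single factor per library. The sorted libraries held 17369191 to 22374153 reads and the time series libraries 17910017 to 33386535. A fold change is a difference of log2(normalized reads + 1), given with its standard error (SE). A gene is called higher or lower when its limma p-value, adjusted by Benjamini-Hochberg over all genes tested, is under 0.05. The labels give the cell type "dopamine neurons" to GFP- samples too. All 9 listed dopamine neuron markers were higher in GFP+ cells, with sums of 76096.5 to 83752 normalized reads per library against 5006 to 6507 in GFP- cells. The GFP- cells held the markers of other cells. All 8 progenitor markers were lower in GFP+ cells (sums of 6660 to 8032 against 67251 to 80868), as were 6 of 8 GABAergic neuron markers (2647 to 2912 against 5155 to 6183), with Gad2 and Slc32a1 higher. Also lower in GFP+ cells were 6 of 7 measured markers of glutamatergic and other neurons (3981 to 4944 against 6684 to 7311), 2 of 4 for astrocytes (332 to 546 against 4655 to 5221) and 5 of 6 for the oligodendrocyte lineage (622 to 1057 against 3251 to 3610). The same held for 5 of 5 microglial markers (29.8 to 55.5 against 369 to 525), 3 of 5 vessel markers (464 in each GFP+ library against 886 to 984) and 6 of 6 red blood cell markers (315 to 497 against 13694 to 14837). Pitx3 is the gene sorted on and is no independent check.

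At E14 the GFP+ cells held less RNA than GFP- cells for most subunits of the GABA-A and mGlu families. A small set led by Gria3, Grm2, Grik3 and Gabrq was higher. Of the 47 genes, 40 were tested, 7 were higher, 22 were lower and 11 passed in neither direction. Over all 18260 genes tested 30.7% were called, 12.7% higher and 18.0% lower. The median fold change of the subunits was -0.48 on the log2 scale, against 0.02 over all genes. Among the 24 glutamate subunits tested 6 were higher and 11 lower (median -0.18), and among the 16 GABA subunits 1 was higher and 11 lower (median -0.83). Grm6, Gabra6, Gabrd and Gabrp had no row. Grin3b, Gabre and Gabrr2 were under the minimum mean of 5 normalized reads, at 0.874 to 9.57 in single libraries. In bulk RNA, fewer cells that express a gene and less RNA per cell cannot be told apart. The part of the other cell types in these differences was not tested.

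The counts depend on the scaling between fractions. Rescaling each library to the same median moved the median of all genes from 0.02 to 0.27 and the share of higher genes among those called from 41.3% to 72.7%. With it 15 subunits were higher and 16 lower, the added higher ones including Gabbr1, Gabra3, Gria4, Grik4, Grik5, Grin1 and Grin2b. Rescaling to the same total gave 28.1% higher among the genes called and left the subunits at 7 higher and 22 lower. Under both scalings the 7 subunits called higher stayed higher. The lower calls of Gabrb2, Gabrg3, Gabbr2, Gria1 and Grik2 were lost under the median scaling, and no called subunit changed direction.

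**Figure D1:**
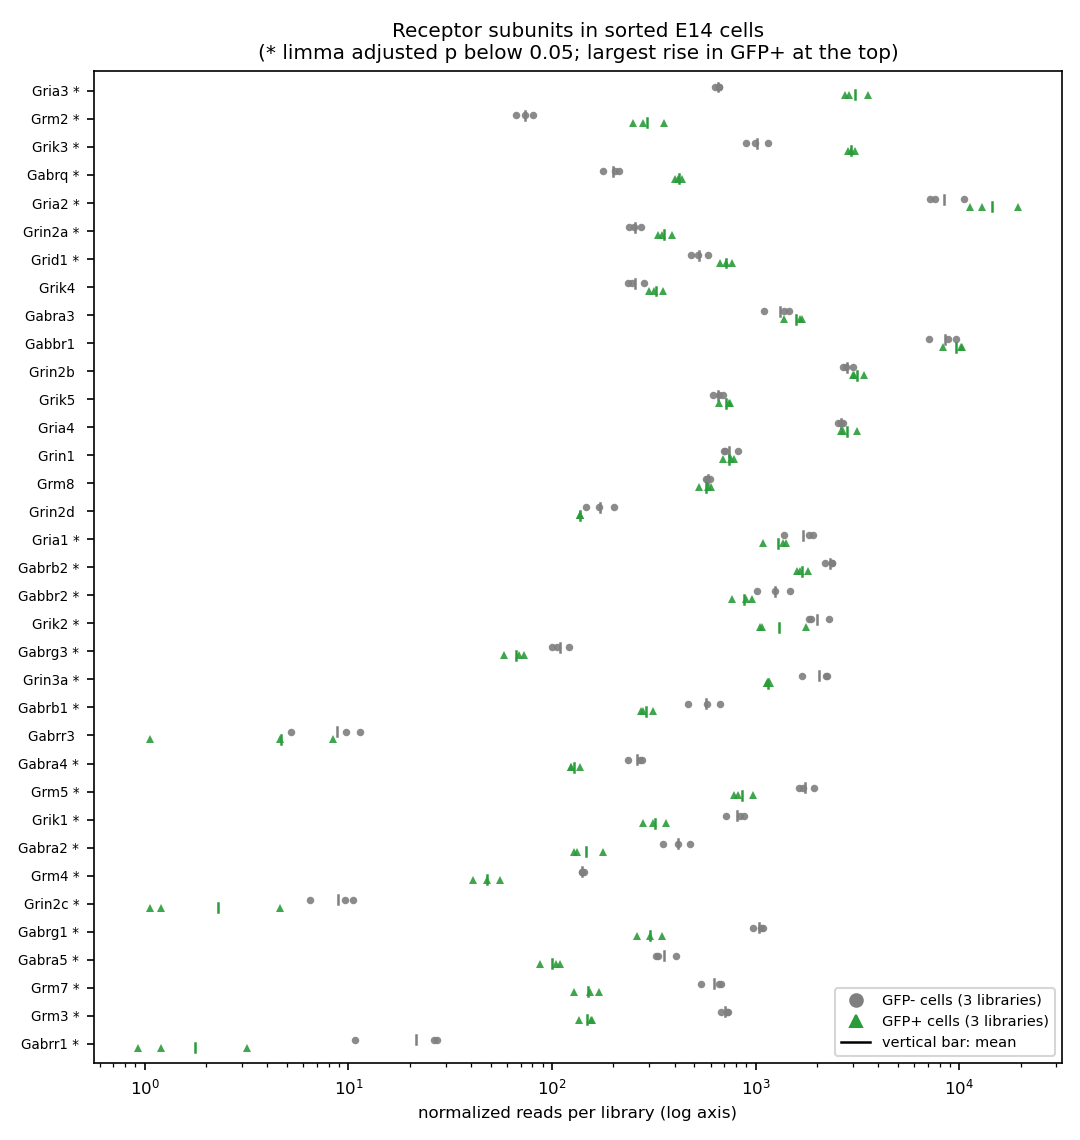
Normalized reads (horizontal log axis) of tested subunits in each of the 3 GFP- (grey circles) and 3 GFP+ (green triangles) libraries of E14, ordered by fold change, with short bars at the means and stars for limma adjusted p under 0.05. Gria3, Grm2, Grik3 and Gabrq lie higher in all 3 GFP+ libraries, and most GABA-A and mGlu subunits lie lower under the authors' scaling.

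Of the AMPA subunits, Gria3 (chromosome X, 41400854 to 41678601, plus strand), a pore-forming subunit, differed most. It was at 659.8, 633 and 658 normalized reads in the 3 GFP- libraries and at 3555, 2751 and 2879.6 in the 3 GFP+ libraries. The fractions were far apart, with a log2 fold change of 2.22 (SE 0.10, limma adjusted p = 2.3e-08). Gria2, whose edited form makes AMPA receptors impermeable to calcium, was at 10504, 7581 and 7213 in GFP- and 19417, 11271 and 12867 in GFP+ libraries. Each GFP+ library was above every GFP- library, library 1 was the highest of its fraction in both, and the fold change was 0.76 (SE 0.19, limma adjusted p = 0.0096). Without GFP- library 3 that p rose to 0.0503. Gria1 was lower by a fold change of -0.40 (SE 0.13), a call lost on leaving out any of 4 single libraries and under the median scaling. Gria4 did not pass (0.10, SE 0.09). The family thus had 2 higher and 1 lower of 4, but 3 higher and none lower under the median scaling.

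Grin1, the subunit every NMDA receptor needs, was at 695, 821 and 709 normalized reads in GFP- and 690.4, 779 and 755 in GFP+ libraries. The fractions overlapped fully, and the fold change was 0.00 (SE 0.10, limma adjusted p = 0.99). Grin2b, the main GluN2 subunit before birth, was at 2997, 2776 and 2695 in GFP- and 3396, 3049 and 3016 in GFP+ libraries. It stood slightly higher in each GFP+ library but did not pass (0.16, SE 0.08, limma adjusted p = 0.16, and 0.018 with library number as a block). Grin2a, a GluN2 subunit that gains weight as synapses mature, was higher, at 273, 254 and 239.6 against 347, 387 and 332, with a fold change of 0.47 (SE 0.11, limma adjusted p = 0.0085). Grin3a, a glycine-binding subunit, was lower by a fold change of -0.82 (SE 0.11), and Grin2d did not pass (-0.32, SE 0.15). Grin2c was close to the detection limit, at 6.46, 9.63 and 10.5 against 1.2, 4.63 and 1.06, with a fold change of -1.72 (SE 0.56, limma adjusted p = 0.037). That call was lost on leaving out any of 4 single libraries and in the authors' deposited table. NMDA subunits numbered 1 higher and 2 lower of 6 tested, and 3 higher and 2 lower under the median scaling.

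Kainate subunits split. Grik3 (chromosome 4, 125490700 to 125714173, plus strand), whose start region is shown above and which forms kainate channels of low glutamate sensitivity, was at 901, 1144 and 987 normalized reads in GFP- and 2829.9, 2942 and 3090.2 in GFP+ libraries. The fractions were well separated, with a fold change of 1.55 (SE 0.10, limma adjusted p = 2.5e-07). Grik1 was lower by -1.34 (SE 0.12) and Grik2 by -0.66 (SE 0.18), the latter lost without GFP+ library 2 or 3. Grik4 and Grik5, which need another kainate subunit to form a channel, did not pass (0.34 and 0.13). With the block Grik4 was higher (limma adjusted p = 0.0077). The 1 higher and 2 lower of the 5 kainate subunits became 3 higher and 1 lower under the median scaling.

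Grid1, a delta subunit, was higher, at 483, 585 and 519 normalized reads in GFP- and 665, 761 and 711 in GFP+ libraries, with a fold change of 0.43 (SE 0.10, limma adjusted p = 0.0076). Its fractions did not overlap.

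Of the mGlu receptors, Grm2 was higher and Grm3, Grm4, Grm5 and Grm7 were lower under each of the 3 scalings. Grm2 (chromosome 9, 106643095 to 106656082, minus strand), a receptor that inhibits adenylyl cyclase, was at 66.7, 80.5 and 73.5 normalized reads in GFP- and 249, 278 and 354 in GFP+ libraries. It was higher throughout, by a fold change of 1.97 (SE 0.17, limma adjusted p = 3.4e-06). Its close relative Grm3 (chromosome 5, 9485541 to 9725170, minus strand), which astrocytes also express, was at 727, 731 and 674 in GFP- and 157, 135 and 155 in GFP+ libraries. This pair of like-acting receptors thus differed in opposite directions, Grm3 by -2.25 (SE 0.11, limma adjusted p = 4.4e-08). Grm7, a presynaptic receptor of low glutamate affinity, was at 541, 676 and 661 against 169.9, 154 and 128, a fold change of -2.05 (SE 0.14, limma adjusted p = 5.6e-07). Grm5, a calcium-mobilizing receptor, was lower by -1.03 (SE 0.10). Grm4 was lower by -1.55 (SE 0.18). Grm8 did not pass (-0.03, SE 0.09).

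Gabrq (chromosome X, 72825178 to 72842602, plus strand), the theta subunit known from monoamine neurons, was the only GABA-A gene called higher with the authors' scaling, all libraries and no block. It was at 213, 205 and 178 normalized reads in GFP- and 415, 402 and 437 in GFP+ libraries. The groups did not overlap, and the fold change was 1.08 (SE 0.12, limma adjusted p = 2.6e-05). The largest decrease was that of Gabrr1, a rho subunit best known from the retina, at 10.8, 27.1 and 26.2 against 1.2, 0.925 and 3.19 (-3.0, SE 0.53, limma adjusted p = 0.0011). Both groups of that gene were at low depth, and its fold depends on the added constant. In all, 10 of 14 GABA-A subunits tested were lower and 1 was higher, a count of 7 lower and 3 higher under the median scaling.

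Gabra5, an alpha subunit of extrasynaptic receptors, was at 325, 332 and 406 normalized reads in GFP- and 87.4, 109 and 104 in GFP+ libraries. It was lower in every GFP+ library, by -1.81 (SE 0.15, limma adjusted p = 2.4e-06). Gabrg1 (chromosome 5, 70751047 to 70842617, minus strand), a gamma subunit also found in glia, was at 1082, 1056 and 965 against 302, 348 and 261, a difference of -1.77 (SE 0.12, limma adjusted p = 4.2e-07). Gabra2 was at 476, 414 and 351 against 178, 129 and 133 (-1.49, SE 0.16). Gabra4, Gabrb1, Gabrg3 and Gabrb2 were lower by -1.01, -0.96, -0.70 and -0.46. Gabrg3 lost its call without GFP- library 2.

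Gabra3, the main alpha subunit here, was at 1095, 1465 and 1379 against 1382, 1682 and 1659 (0.27, SE 0.12, limma adjusted p = 0.12, and 0.00072 with the block). With the block it was called higher. Gabrr3 did not pass (-0.97, SE 0.61).

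Of the GABA-B pair, Gabbr1, which binds GABA, was at 7069, 9625 and 8805 normalized reads in GFP- and 8340.3, 10301 and 10217 in GFP+ libraries. The fractions overlapped and the gene did not pass (0.18, SE 0.12, limma adjusted p = 0.29, and 0.0076 with the block). Gabbr2, the partner that couples to G proteins, was at 1014, 1473 and 1249 against 766, 961 and 893. It was lower by -0.50 (SE 0.13, limma adjusted p = 0.014), a call lost without GFP- library 2 or 3. With library number as a block 12 subunits were higher and 22 lower, beside 46.4% of all genes called.

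From E14 to birth the sorted GFP+ cells gained receptor RNA broadly. Between E14 and P0, 29 of 36 subunits rose and 2 fell, with 55.7% of all 10781 genes called, 25.1% higher and 30.6% lower. The median fold change of the subunits was 0.79, against -0.05 over all genes. All 14 GABA subunits in the table rose (median 1.10), and so did all 5 NMDA subunits (median 0.90). AMPA subunits rose in 3 of 4 and kainate subunits in 1 of 5, and the 2 that fell were the mGlu receptors Grm2 and Grm8. These E14 to P0 counts of higher and lower subunits were the same under both rescalings. Grin2c, Grin3b, Grm4, Grm6, Gabra6, Gabrd, Gabre, Gabrp and the 3 rho subunits had no row in that table, whose lowest gene mean was 107 normalized reads, and were not analysed here.

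The step to E16 held more of the calls than the step to birth. From E14 to E16, 25 subunits rose and 2 fell of 36 (33.0% of all genes called, 15.2% higher), with a median of 0.68 against -0.04 over all genes. From E16 to P0, 12 rose and 1 fell (33.4% of all genes called, 16.8% higher), with a median of 0.21 against -0.01. Without E16 library 3 the later count was 8. The 3 comparisons share libraries and are not independent of each other.

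**Figure D2:**
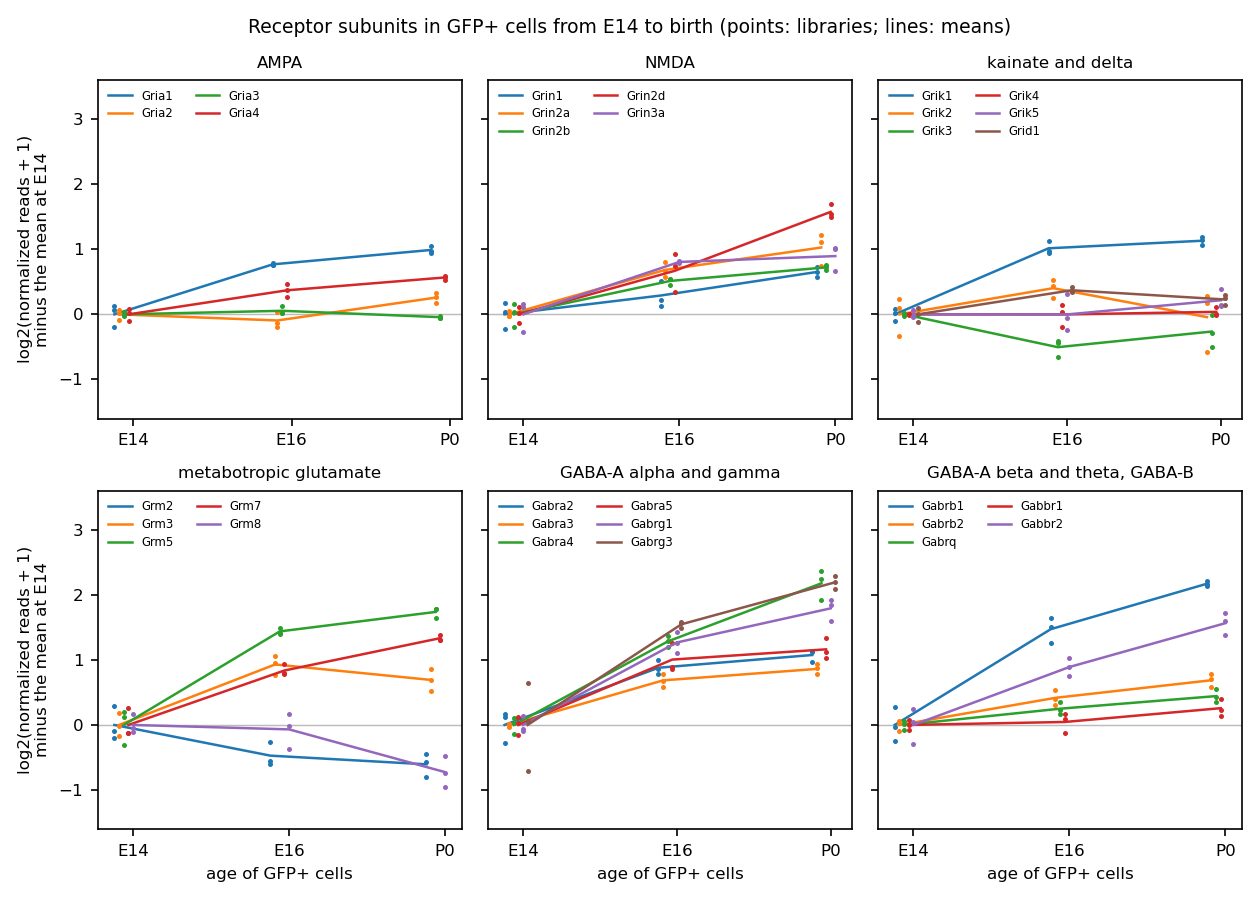
Log2(normalized reads + 1) of subunits, each minus its own mean at E14 (vertical axis), by age of the GFP+ cells (horizontal axis), in 6 panels by family, with points for libraries and lines through the means of 3 libraries. Gabra4 and Gabrb1 rise at both steps, and Grm2 and Grm8 are lower at P0 than at E14.

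Of the AMPA subunits, Gria1 rose from E14 to P0 by 0.99 (SE 0.08) and Gria4 by 0.57 (SE 0.07). Gria2 was at 26167, 24410.1 and 27084 normalized reads at E14, at 26510.0, 22659 and 23679.7 at E16 and at 29245, 31071 and 32484 at P0. Its rise came after E16 (0.35, SE 0.08, limma adjusted p = 0.0065), and over the whole interval it was 0.26 (SE 0.08, limma adjusted p = 0.019), lost on leaving out any of 3 single libraries. Gria3, the AMPA subunit that marked the GFP+ fraction, was at 4257, 4419.9 and 4291 at E14 and at 4165, 4253 and 4165 at P0. It did not pass in any interval (E14 to P0 -0.04, SE 0.07).

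Grin1 was at 890.2, 809 and 672 normalized reads at E14, at 856, 1123 and 919 at E16 and at 1166, 1239 and 1298 at P0. It rose by 0.65 from E14 to P0 (SE 0.12, limma adjusted p = 0.00035). Grin2b was at 4011, 3681 and 3147, then 5261, 5216 and 4921, then 6053, 5789 and 5946. It rose before E16 (0.51), did not pass after it (0.21), and rose by 0.72 in all (SE 0.08, limma adjusted p = 6.7e-06). Grin2d (chromosome 7, 45831883 to 45878378, minus strand), a subunit of slowly closing channels, was at 135, 126 and 113 at E14, at 158, 238 and 209 at E16 and at 364, 406 and 352 at P0. It rose at both steps, by 0.67 and 0.91, and by 1.57 in all (SE 0.16, limma adjusted p = 1.5e-06), the largest rise of an NMDA subunit. Grin2a and Grin3a rose by 1.03 (SE 0.11) and 0.90 (SE 0.11).

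Of the kainate subunits only Grik1 rose (1.13, SE 0.09). Grik3, high in GFP+ cells at E14, was at 2614, 2626 and 2544 normalized reads at E14, at 1647, 1951 and 1903 at E16 and at 1831, 2125 and 2589.5 at P0. Its E16 libraries lay below all E14 libraries, a fall by 0.50 on the log2 scale (SE 0.11, limma adjusted p = 0.0028), and its P0 libraries overlapped both ages. Over the whole interval it did not pass (-0.26, SE 0.11, limma adjusted p = 0.052). Grik2, Grik4 and Grik5 did not pass in any interval. The delta subunit Grid1 rose from E14 to P0 by 0.23 (SE 0.08), a call lost on leaving out any of 4 single libraries.

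Grm5 (chromosome 7, 87584168 to 88134907, plus strand), a calcium-mobilizing receptor, was at 1840.2, 1742 and 1296 normalized reads at E14, at 4293, 4519.6 and 4254 at E16 and at 5028, 5512 and 5555 at P0. The 3 ages did not overlap, and the gene rose by 1.74 (SE 0.11, limma adjusted p = 1.9e-08). Its call after E16 (0.30) was lost under both rescalings and without any of 5 single libraries. Grm7 and Grm3 rose from E14 to P0 by 1.33 (SE 0.12) and 0.69 (SE 0.13). Grm2 was at 194, 275 and 209.6 at E14, at 148, 186 and 152 at E16 and at 164, 150.2 and 128 at P0. Each P0 library was below each E14 library, a fall by 0.61 (SE 0.17, limma adjusted p = 0.0069), and the step to E16 (-0.47, limma adjusted p = 0.043) was lost under both rescalings and without any of 5 single libraries. Grm8 (chromosome 6, 27275119 to 28135178, minus strand), a presynaptic receptor, was at 1140.2, 979 and 939, then 1141, 789.9 and 1008, then 729, 609 and 521. It fell after E16, by 0.66 (SE 0.14, limma adjusted p = 0.0035), and by 0.73 in all (SE 0.14, limma adjusted p = 0.00065).

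The largest rises were in GABA-A genes. Gabrg3 (chromosome 7, 56716465 to 57387188, minus strand), a minor gamma subunit, was at 162, 108 and 63.2 normalized reads at E14, at 312, 309.9 and 291 at E16 and at 478, 445 and 509 at P0. It rose by 2.19 (SE 0.24, limma adjusted p = 3.4e-06), with the E14 libraries the most spread. The call of its later step (0.65) was lost under both rescalings and without any of 7 single libraries. Gabra4 (chromosome 5, 71569749 to 71658308, minus strand) was at 193, 204 and 172, then 489, 464 and 435, then 718, 900.2 and 984. It rose at both steps and by 2.18 in all (SE 0.13, limma adjusted p = 1e-08). Gabrb1 (chromosome 5, 71658113 to 72149037, plus strand) was at 460.1, 369 and 319, then 1189, 1074 and 908, then 1757, 1700.0 and 1658. The ages did not overlap (2.17, SE 0.13, limma adjusted p = 1.2e-08). Gabrg1 was at 649, 565 and 553, then 1583, 1269.8 and 1411, then 2119, 2232 and 1785, and rose by 1.79 (SE 0.11, limma adjusted p = 1.4e-08).

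Gabra5, Gabra2, Gabra3, Gabrb2 and Gabrq rose from E14 to P0 by 1.16, 1.07, 0.86, 0.69 and 0.44. These rises were smaller than those of Gabrg3, Gabra4, Gabrb1 and Gabrg1.

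Gabbr2 (chromosome 4, 46662305 to 46991873, minus strand) was at 1279, 1116 and 876 normalized reads at E14, at 1818, 1990.2 and 2201 at E16 and at 2814, 3246 and 3542 at P0. It rose at both steps, by 0.89 and 0.67, and by 1.56 in all (SE 0.13, limma adjusted p = 2.2e-07). Gabbr1 was at 10586, 11184 and 9961, then 9730.2, 11842 and 11249, then 11594, 12443 and 13959.6. Its rise was small (0.26, SE 0.09, limma adjusted p = 0.027) and was lost on leaving out any of 4 single libraries.

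Markers of other cells moved over the same ages. The 9 dopamine neuron markers summed to 87465 to 99690 normalized reads at E14 and 77176 to 109170 at P0. Singly, 6 of the 9 were lower at P0 than at E14, among them Pitx3 (-1.10) and Nr4a2 (-0.66), and Slc6a3 (1.5) and Slc18a2 were higher. Of 8 progenitor markers 3 had a row, with sums of 4047 to 4306 at E14, 2737 to 3128 at E16 and 2202 to 4403 at P0. Nes and Vim fell and Fabp7, a radial glia and astrocyte gene, rose by 1.19 from E14 to P0. Fabp7 was at 700, 717 and 848 normalized reads at E14 and at 1438, 1081 and 3293 at P0, where library 3 stood far above the others. Of 8 GABAergic markers 3 had a row, with sums of 3526 to 4111 at E14, 5107.5 to 5355 at E16 and 3181 to 5083 at P0. From E14 to P0 Gad1 (-0.76) and Slc32a1 (-0.56) fell and Gad2 did not pass (0.23). Slc17a6, the 1 row of the glutamatergic and other neuron list, was at 4931 to 5099.5 at E14 and 5111 to 8294 at P0. It rose by 0.49 (SE 0.14, limma adjusted p = 0.010). Mbp, the 1 oligodendrocyte gene with a row, rose by 0.69. Astrocyte, microglia, vessel and red blood cell markers had no row. Their part in the receptor differences was not tested.

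The log2 change, taken with its sign and not divided by the length of the interval, differed between the steps for 13 of 36 subunits. In this contrast of the step after E16 against the step before it 13.6% of all genes were called. In 12 the later step was lower (5.62% of all genes), Grm3 and Grm5 among them, and in Grik3 it was higher, a call lost without E16 library 1 or 3. The median of the subunits was -0.36, against 0.00 over all genes. The count was 5, 6 and 8 without E16 library 3, E16 library 1 and P0 library 2.

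Levels of different genes were set beside each other per kilobase (kb) of annotated exon, with all exons of a gene merged. The transcripts present can be shorter, so the order of genes and the shares per kb below depend on this length. By normalized reads alone, Gria2 (mean 14518) stood above Gabbr1 (9619) in sorted GFP+ cells of E14. In GFP+ cells of E14 Gabbr1 was at 1239, Gria2 at 934 ± 278, Gria4 at 447 ± 44.8 and Gabra3 at 401 normalized reads per kb (mean ± SD, n = 3). Gria2 and Gabbr1 overlapped within their SDs, and Gria2 varied most of the 4. At P0 in the time series the levels were Gria2 at 1989.5 ± 104, Gabbr1 at 1631, Gabra3 at 1289.8 and Gria4 at 1088 ± 21.9 normalized reads per kb. These levels come from tables normalized apart and are not compared with each other.

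The make-up of a receptor family was given as each subunit's share of the family's RNA per kb, a quantity that the scaling between libraries does not touch. Gabra3 made up 48.0%, 56.5% and 53.5% of alpha subunit RNA in the GFP- libraries and 75.8%, 79.6% and 80.3% in the GFP+ libraries. Every GFP+ library was above every GFP- library (mean 78.6% ± 2.42 against 52.7% ± 4.33, SD, n = 3). In the time series the Gabra3 share was 79.9% ± 1.11 at E14, 76.4% ± 2.43 at E16 and 73.5% ± 1.66 at P0. Gabra5 took 18.8% ± 1.96 in GFP- and 6.60% ± 0.254 in GFP+ cells. Gabra4 went from 3.52% ± 0.287 at E14 to 8.10% ± 1.01 at P0.

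Among gamma subunits Gabrg1 was 11.98%, 13.7% and 11.5% in the GFP- libraries and 4.35%, 5.75% and 4.21% in the GFP+ libraries. In the time series it was 6.22% ± 0.489 at E14, 11.3% ± 0.804 at E16 and 14.9% ± 1.04 at P0. Among beta subunits Gabrb1 went from 2.34% ± 0.337 at E14 to 6.59% ± 0.274 at P0.

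Gria3 was 4.79%, 5.11% and 5.29% of AMPA subunit RNA in the GFP- libraries and 15.8%, 16.9% and 16.5% in the GFP+ libraries. In the time series its share was 13.6% ± 0.555 at E14 and 10.01% ± 0.279 at P0, while that of Gria1 was 11.8% ± 1.28 and 17.6% ± 0.557. Among GluN2 subunits the Grin2d share was 9.36% ± 0.114 at E14 and 15.2% ± 1.69 at P0. The log2 ratio of Gabbr2 to Gabbr1, here of normalized reads and not per kb, was -3.29 ± 0.23 at E14, -2.45 ± 0.11 at E16 and -1.99 ± 0.05 at P0, so the mean ratio was higher at each later age. For these shares and ratios 42 comparisons were made, GFP+ with GFP- and P0 with E14. In 33 the libraries did not overlap and the exact two-sided permutation p was 0.1, the smallest that 3 against 3 libraries can give (adjusted p = 0.127 over the 42), so none could pass 0.05. The Gabra5 share over time was among the 9 that overlapped (5.85% at E14, 6.67% at P0, exact p = 0.5).

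**Figure D3:**
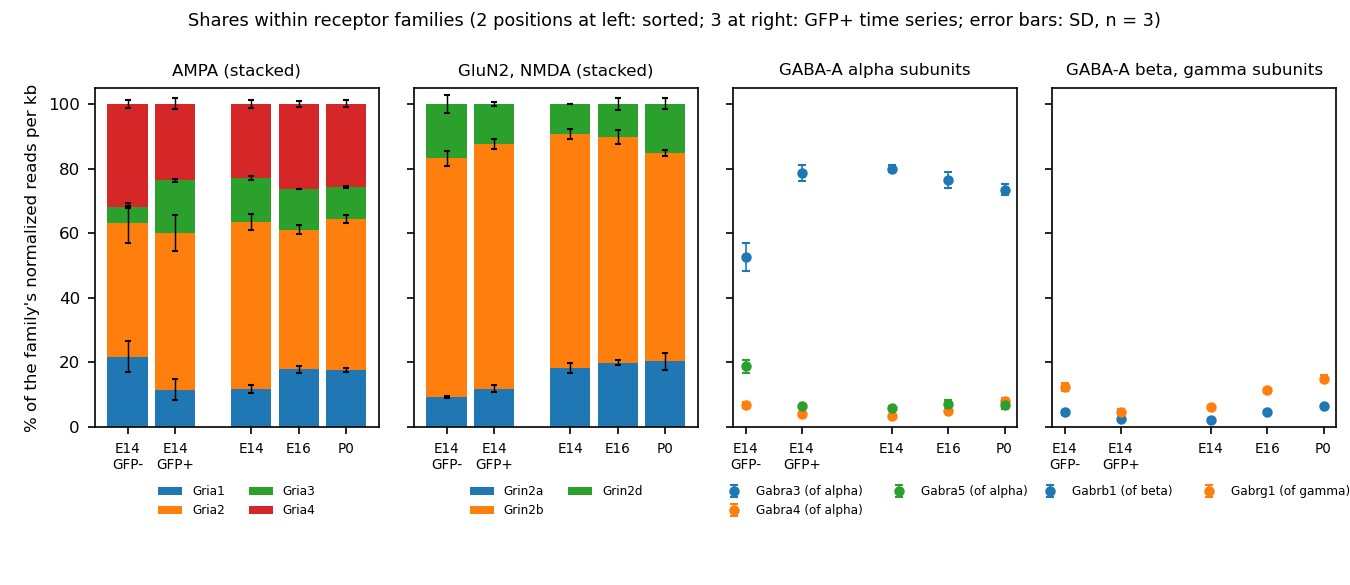
Percent of RNA per kb (vertical axis) in sorted GFP- and GFP+ cells and at the 3 ages, as means of 3 libraries with SD bars: stacked shares of the AMPA and GluN2 subunits, and as points Gabra3, Gabra4 and Gabra5 within alpha, Gabrb1 within beta and Gabrg1 within gamma subunits. Gabra3 takes 78.6% of alpha RNA in sorted GFP+ against 52.7% in GFP- cells, and Gabrg1 takes 6.22% of gamma RNA at E14 and 14.9% at P0.

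Sorted and time series libraries are separate samples, so the direction at E14 can be set beside the change to birth. Of the 22 subunits lower in GFP+ cells at E14, 19 had a row in the time series, and 18 of these rose from E14 to P0 (94.7%), none fell and Grik2 did not pass. Over all genes lower in GFP+ cells with a row, 44.3% of 1344 rose and 21.2% fell. The median change was 1.16 for these subunits and 0.18 for all such genes. Of the 7 subunits higher in GFP+ cells, Gabrq, Gria2, Grid1 and Grin2a rose, Grm2 fell, and Gria3 and Grik3 did not pass. Over all genes higher in GFP+ cells with a row, 26.4% of 1797 rose and 38.3% fell. Of the 11 subunits called in neither direction at E14, 10 had a row, and 7 of these rose (70%) and 1 fell. Over all such genes with a row, 21.4% of 7558 rose and 30.5% fell. A rise was thus not particular to the subunits lower at E14. These shares are descriptions with no test, and the part of cell types other than dopamine neurons in both directions was not tested. The lower-called Grin2c, Grm4 and Gabrr1 had no row in the time series. The lowest gene mean there, over all ages, was 107 normalized reads. A gene low in GFP+ cells at E14 can therefore keep a row more easily if it rises later, and the weight of this was not tested.

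**Figure D4:**
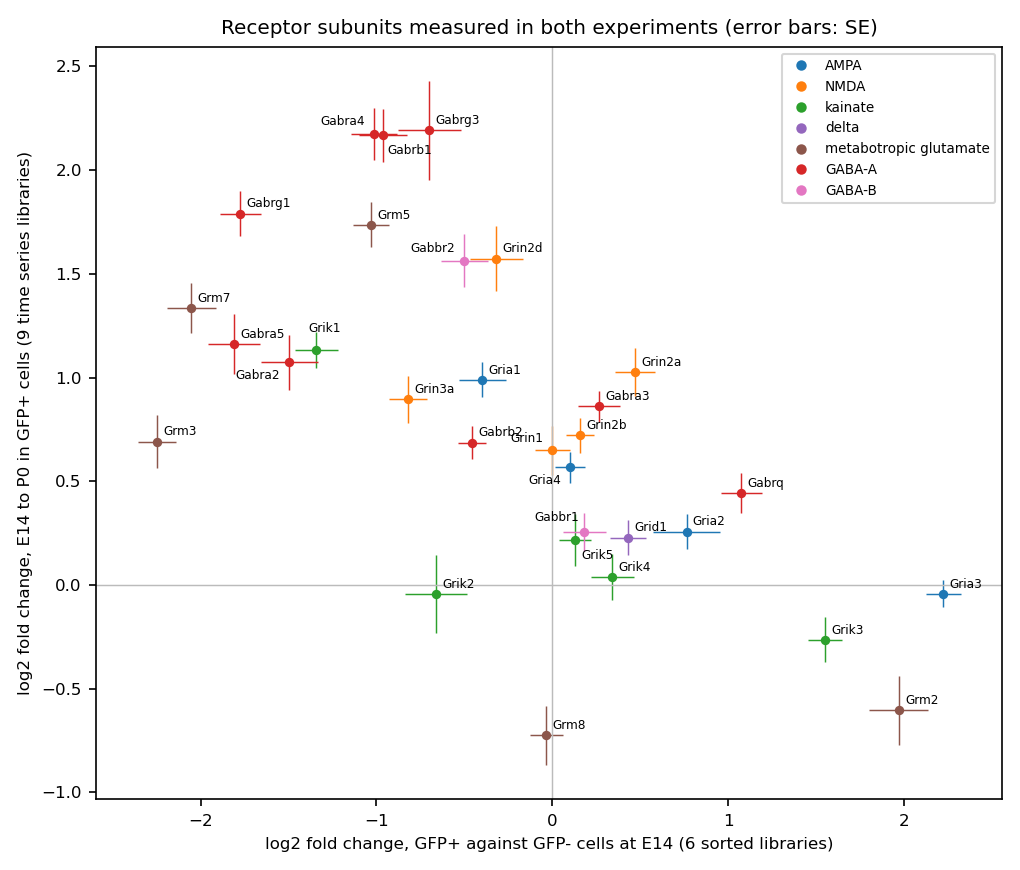
Log2 fold change of subunits in GFP+ against GFP- cells at E14 (horizontal axis) and from E14 to P0 in GFP+ cells (vertical axis), from separate libraries, with SE bars and colours by family. The subunits called lower in GFP+ cells at E14 lie at the upper left, apart from Grik2, and Gria3, Grik3 and Grm2 lie at the right near or below 0.

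Many GABA-A genes lie in groups on the genome, and 3 groups are given here from GENCODE M21 on GRCm38. The group on chromosome 5 (70751047 to 72149037) holds Gabrg1, Gabra2, Gabra4 and Gabrb1. All 4 were lower in GFP+ cells (median -1.25) and all 4 rose from E14 to P0 (median 1.98). These directions are not particular to the group. Of all 14 GABA-A subunits tested 10 were lower, against 18.0% of all genes. All 14 GABA subunits with a time series row rose, against 25.1% of all genes. On chromosome X (72255999 to 72842602) Gabrq was higher, Gabra3 did not pass, both rose, and Gabre was not tested. On chromosome 4 (33062999 to 33163588) Gabrr1 was lower and Gabrr2 was not tested. Gabra4 and Gabrb1 overlap at their starts on opposite strands. The use of strand in counting is not given in the sources used here, and their reads in the overlaps cannot be told apart.

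**Figure D5:**
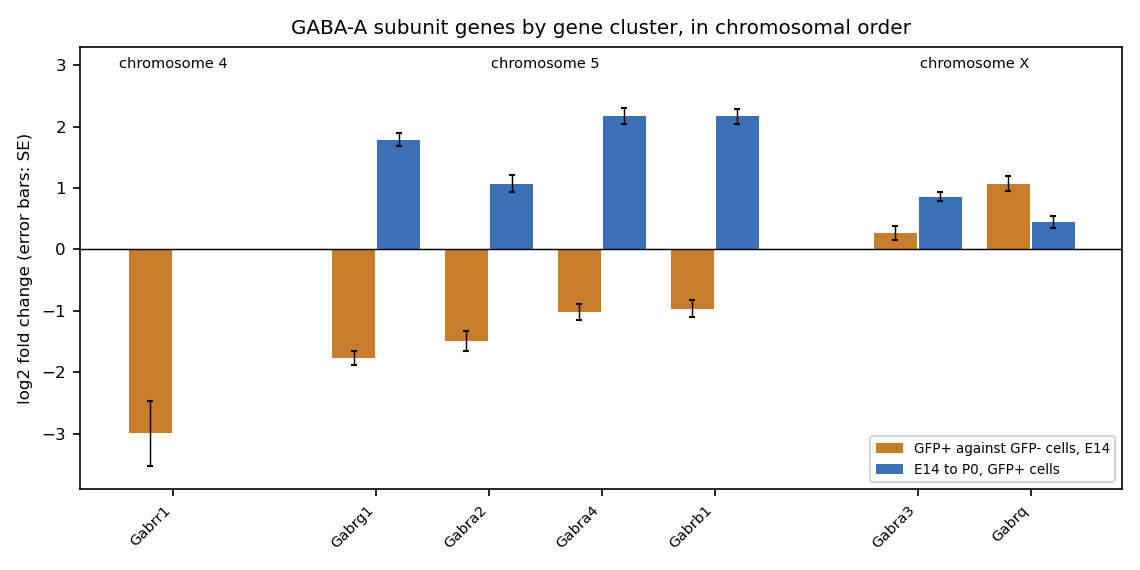
Log2 fold change of tested GABA-A genes in 3 genomic groups, GFP+ against GFP- cells at E14 and E14 to P0, with bars for the SE. The 4 genes on chromosome 5 lie below 0 in the first and above 0 in the second, and Gabrq on chromosome X lies above 0 in both.

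Receptors work with auxiliary subunits, scaffolds and ion transporters, listed by name. Of 14 AMPA and kainate auxiliary subunits 6 were higher in GFP+ cells and 2 lower (median 0.26), beside 12.7% higher and 18.0% lower of all genes. Shisa6, which keeps AMPA receptors from desensitizing, averaged 55.7 ± 10.1 normalized reads in the GFP- libraries against 257 ± 43.2 in the GFP+ libraries (2.19), and Cacng3, an AMPA receptor trafficking subunit, was higher by 1.66. Cnih3 and Neto1 were lower by -2.10 and -2.07. Of 20 excitatory scaffold genes 4 were higher and 3 lower (median 0.10), a share called near the 30.7% of all genes. With the block 8 were higher and 5 lower, beside 46.4% of all genes called. Homer2, which links mGlu receptors to calcium stores, was at 487 ± 25.5 and 1781 ± 106 (1.87). Of 11 tested inhibitory partners 3 were higher and 3 lower (median 0.00). The GABA-B auxiliary subunits Kctd8 and Kctd16 were lower by -2.91 (594 ± 103 against 77.3 ± 4.38) and -2.36.

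Over time 9 of 19 scaffold genes rose from E14 to P0 and 3 fell (median 0.35), with Dlgap1 at 1.2 and Homer3 at -1.72 the extremes. Of 10 auxiliary subunits 3 rose and 2 fell, and of 11 inhibitory partners 3 rose and 2 fell. The shares called in either direction in these lists are near the 55.7% of all genes called from E14 to P0. By direction 25.1% of all genes were higher and 30.6% lower. The scaffold genes rose in a larger share and fell in a smaller share than these, with no test made. Slc12a5 (KCC2), the transporter that removes chloride from neurons, was at 1591 ± 33.3 normalized reads at E14, at 2343 ± 284 at E16 and at 3675 ± 193 at P0. It rose by 1.21 (SE 0.09, limma adjusted p = 8.1e-08). Slc12a2 (NKCC1), which loads chloride, did not pass (0.01, limma adjusted p = 0.91). The log2 ratio of Slc12a5 to Slc12a2 went from -0.42 ± 0.06 at E14 to 0.23 ± 0.28 at E16 and 0.77 ± 0.20 at P0. In GFP+ against GFP- cells Slc12a5 was lower by -0.41 (limma adjusted p = 0.034). The log2 ratio of the pair was -0.42 ± 0.32 in GFP+ and -0.16 ± 0.32 in GFP- cells. The libraries overlapped in it (exact two-sided permutation p = 0.4).

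Some receptor genes also gave circular RNAs (circRNAs), loop-shaped transcripts recognised by the junction that closes the loop. Of 7528 circRNAs in the time series 50 came from 23 receptor genes, and 8 of them, from 6 genes, reached the minimum mean of 2 normalized reads. From E14 to P0 limma called 0 of the 8, with 3.19% of all 1630 circRNAs tested called. At an unadjusted p under 0.05, 2 of them were higher, as 19.0% of all circRNAs tested had such a p in either direction. The authors' deposited table had none under an adjusted p of 0.05. The most abundant circle, of Grin2b, was at 2.29, 0 and 15.5 normalized reads at E14, at 9.996, 9.54 and 6.88 at E16 and at 21.5, 13.0 and 16.6 at P0. Its E14 and P0 libraries overlapped (2.22, SE 0.78, limma adjusted p = 0.12). A circle of Gabra3 was at 0 in each E14 library and at 9.91, 3.26 and 4.74 at P0, where a listed 0 can stand for 1 read (limma adjusted p = 0.12). The fold changes of 7 of the 8 were above 0, with a median of 1.08 against -0.36 over all circRNAs tested. The gene RNA of their hosts also changed, by 0.72 in Grin2b, 1.13 in Grik1, 0.86 in Gabra3 and 1.03 in Grin2a. In Grid1 and Grik2 it changed by 0.23 and -0.04. A change of the circles apart from that of their hosts was not tested. The libraries held 11196 to 33061 circRNA reads each, and the power to detect a change of these circles was not tested. Between the sorted fractions the authors' deposited table gave -1.03 for the most abundant circle of Grik2 (adjusted p = 0.933) and -1.08 for that of Grin2b (adjusted p = 0.952).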

How the data were processed

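Per the labels' protocols, extraction used the miRNeasy micro kit, and libraries were made with ScriptSeq v2 after depletion of ribosomal RNA. Trim Galore, TopHat2 and DESeq2 are named, without versions, in the submitters' processing notes, as are the builds mm10 and GRCm38. The read counter, strand setting and circRNA caller are not given in the sources used here. The authors deposited normalized reads, a signal value per gene or circRNA, and, per the file headers, log2 fold changes and p-values of their own comparisons. Dividing each library by its constant step gave whole reads within 0.1 for all values. Those of the sorted gene table were also tested with edgeR 4.0.16, which called 5541 genes.

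The main test was the two-sided limma-trend test (R 4.3.3, limma 3.58.1) of log2(normalized reads + 1) for genes whose mean reached 5. Separate fits were made for the 6 sorted libraries and for the 9 time series libraries. Sorted columns could be placed in a group but not matched to 1 sample of it. Their numbers are not stated to pair the libraries. Same-numbered deviations correlated at 0.645, 0.357 and 0.234, and differently numbered ones at -0.542 to 0.395. GFP+ library 2 correlated more with GFP- library 3 (0.395) than with GFP- library 2 (0.357). These values thus do not settle a pairing by number. The block on library number is printed where it changes a call of a reported subunit between the fractions, and as counts for the scaffold list. In the other partner lists it added Shisa9 as higher (limma adjusted p = 0.046). It also added Kctd12 (0.0010) and Slc12a2 (0.041) as lower. Partner, marker and receptor lists were chosen with earlier results of these data known. Values in every library are given for the 6 subunits with the largest change in each direction past the threshold, and for core subunits (Gria2, Grin1, Grin2b, Gabbr1 and Gabbr2), except some subunits that are counted but not reported here. Of partner lists at most 5 genes per direction are named. Genes of other lists, promoters and a few further subunits were chosen for display with their values known. Lengths per kb are merged exons of GENCODE M21. Promoter windows are from RefSeq, GRCm38.p6. Scripts were tested on simulated data. Alternatives were the added constant, the filter, 2 rescalings, the block, leaving out each library, edgeR and the authors' DESeq2 values.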

Additional observations from a re-analysis of the deposited data

Results flagged for a closer look

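The change from E16 to P0 differed from the change from E14 to E16 in 13 subunits by the limma contrast of these steps (adjusted p under 0.05), with 13.6% of all genes called. The later step minus the earlier one was negative in 12. For named glutamate receptors it was -1.17 in Grm3, -1.14 in Grm5, -0.90 in Grik1, -0.71 in Grin3a, -0.55 in Gria1 and -0.51 in Grid1. For named GABA-A subunits it was -0.85 in Gabra5, -0.77 in Gabrb1, -0.74 in Gabrg1 and -0.51 in Gabra3. In each of these the early step was a called rise. Of them Grm5, Gabrb1 and Gabrg1 rose again after E16, the Grm5 call there being lost under both rescalings and without any of 5 single libraries, and the others did not pass there. Grik3, at 0.74, was the 1 subunit with a higher later step: it fell to E16 and did not pass after it, and its call in the contrast was lost without E16 library 1 or 3. The calls of Grm3, Grm5 and Grik1 in the contrast were kept in all 14 alternatives run for it. The calls of Gabra5, Gabrb1 and Grid1 were kept in 8 of the 14, those of Grin3a and Gria1 in 11 and those of Gabra3 and Gabrg1 in 12, with all losses on leaving out a single library.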

How the results depend on the processing

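No called subunit value changed sign under the alternatives run for it. Uncalled values of Grin1 between the fractions (-0.09 to 0.25, against 0.00) and Gabbr1 from E14 to E16 (-0.01 to 0.13) did, and the median of all genes between the fractions went from 0.02 to -0.07 with the same-total rescaling. In the sorted comparison 9274 genes were called with libraries rescaled to the same median and 8466 with the replicate block, against 5599. The subunit count there, 29, ranged from 24 to 30 when single libraries were left out, and was 31 with the median rescaling, 34 with the block, 29 with edgeR on recovered reads and 28 in the authors' deposited table. From E16 to P0 the subunit count of 13 ranged from 8 to 16, lowest without E16 library 3 and highest without E14 library 3. On leaving out single libraries the contrast of the 2 steps ranged from 5 to 13 subunits, with 5, 6 and 8 without E16 library 3, E16 library 1 and P0 library 2. The causes were not tested. The numbers of time series libraries did not pair them (correlations from -0.113 to 0.245). With that number as a block 32 subunits were called from E14 to P0, 28 from E14 to E16, 16 from E16 to P0 and 16 in the contrast of steps. The count of receptor circRNAs stayed 0 in all its alternatives. Of 61 values of single subunits under 879 alternatives, 830 kept their side of the threshold, 37 lost the call and 12 gained it. Genes of low abundance in the time series, and circRNAs at a few reads per library, have the least depth.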
